A study of Mus musculus with 24 samples.

Results

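The cytochrome P450 genes of the mouse were followed in lung tissue after HDM (commonly house dust mite, an allergen) and after PBS (commonly phosphate-buffered saline). Every probe set annotated to a single gene with a symbol of the form Cyp, digits, letters, digits was taken, which gave 93 probe sets of 70 genes, out of 18193 genes with such a probe set in all. Each gene was represented by its probe set with the highest mean signal over the 12 samples. The study had 4 groups of 3 samples: IL-13 KO mice treated with HDM, IL-13 KO mice treated with PBS, wild-type mice treated with HDM and wild-type mice treated with PBS. IL-13 is a cytokine of allergic inflammation, and the KO mice lack its gene. Each sample had 2 arrays, called set A and set B. Dose, schedule, background strain, age and sex are not in the labels. Nor do these state whether each sample is its own animal, and the p-values then cover only the spread among the arrays, which may be technical.

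P450 enzymes are haem proteins that insert an oxygen atom into a substrate, using electrons passed on by a reductase. The first families act largely on drugs, pollutants and other foreign chemicals, family 4 acts largely on fatty acids and eicosanoids, and the higher families make or break down sterols, bile acids, steroid hormones, vitamin D and retinoic acid. In the mouse lung, foreign-chemical oxidation is concentrated in club cells, the secretory cells of the small airways, which are known for Cyp2f2 and for their sensitivity to naphthalene, a substrate of that enzyme.

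The 70 genes fell into 15 families and 34 subfamilies. Family 2 had 35 members and family 4 had 11. A probe set was tested when its mean signal reached the 30th percentile of its array set, which was 33.9 (set A) or 43.4 (set B), and 39 of the 70 P450 genes passed. The other 31 had mean signals of 2.91 to 33.8. A gene was called well expressed when its mean reached the 75th percentile of its set (190 in set A, 195 in set B), and 10 genes did: Cyp2f2, Cyp4b1, Cyp2b10, Cyp2s1, Cyp1a1, Cyp2e1 and Cyp4v3 on set A, and Cyp26b1, Cyp20a1 and Cyp4f39 on set B. Just inside that threshold lay Cyp4v3 with a mean of 192, and just outside it Cyp4a31 with 183 and Cyp27a1 with 176. At the filter, Cyp7a1 lay just inside with 37.8 and Cyp11b2 just outside with 31.6. Signals of different probe sets were not ranked against each other, and the 100 probe sets that sets A and B share read 3.58-fold higher on set B in the median.

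All arrays had the same trimmed mean of 150, and array medians were 69.5 to 77.7 (set A) and 83.5 to 93.7 (set B). The tissue label was compared with markers: all 11 club cell and all 10 alveolar type 2 cell markers found on the arrays passed the filter, whereas 2 of 9 liver cell markers did. All 8 skeletal muscle markers passed it too, so passing this filter does not by itself show lung. Signal of Il13 itself was under the filter in all groups, with 8.71 to 15.5 in KO HDM, 3.30 to 9.45 in KO PBS, 15.5 to 29.9 in wild-type HDM and 4.65 to 12.1 in wild-type PBS samples. The place of its probe set relative to the deletion is unknown here, and the genotype labels could not be checked by it. Skeletal muscle transcripts were present in wild-type PBS replicate 2 and wild-type HDM replicates 1 and 2, where Tnnc2 exceeded 100, against below 10 in the other 9 samples.

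The 250 bases before the transcription start are shown for 4 genes: the members with the largest called falls (Cyp4b1 and Cyp2b10), the airway gene Cyp2f2, and the member with the largest rise (Cyp4f18). The sequences are from RefSeq on build GRCm38.p6, 5′ to 3′ on the strand of the gene, and capitals mark matches to any of 4 motifs searched on both strands. The motifs were CAAGTG, the core bound by the lung factor NKX2-1, TGTTTNC, bound by FOXA factors, TTGCNNAA, bound by C/EBP factors, and GCGTG, bound by the aryl hydrocarbon receptor. Cyp2f2 lies at chr7:27119705-27119954 (plus strand), Cyp2b10 at chr7:25897408-25897657 (plus), Cyp4b1 at chr4:115647722-115647971 (minus) and Cyp4f18 at chr8:72009627-72009876 (minus), where the coordinates are those of the windows printed.
Cyp2f2: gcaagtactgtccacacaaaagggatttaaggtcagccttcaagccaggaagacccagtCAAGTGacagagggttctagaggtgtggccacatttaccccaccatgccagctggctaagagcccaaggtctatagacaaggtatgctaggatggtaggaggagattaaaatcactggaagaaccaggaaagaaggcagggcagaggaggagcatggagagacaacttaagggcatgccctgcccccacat
Cyp2b10: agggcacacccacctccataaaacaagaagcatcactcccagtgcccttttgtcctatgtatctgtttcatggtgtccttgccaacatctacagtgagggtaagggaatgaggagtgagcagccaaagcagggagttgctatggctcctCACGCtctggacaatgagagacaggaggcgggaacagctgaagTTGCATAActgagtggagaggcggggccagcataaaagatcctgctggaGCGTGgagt
Cyp4b1: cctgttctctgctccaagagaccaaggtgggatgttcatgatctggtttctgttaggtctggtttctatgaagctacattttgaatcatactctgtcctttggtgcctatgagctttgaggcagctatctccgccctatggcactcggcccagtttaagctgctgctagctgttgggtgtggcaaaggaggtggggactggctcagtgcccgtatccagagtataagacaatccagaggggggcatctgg
Cyp4f18: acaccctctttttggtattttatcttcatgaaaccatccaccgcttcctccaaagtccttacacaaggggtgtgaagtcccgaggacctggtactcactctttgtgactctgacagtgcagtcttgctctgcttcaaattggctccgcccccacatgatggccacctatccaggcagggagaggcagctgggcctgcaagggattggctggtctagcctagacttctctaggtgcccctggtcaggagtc
The Cyp2f2 window held 1 match, CAAGTG, whose distance from the start was 191 bases. The Cyp2b10 window held TTGCATAA at 58 bases before the start, GCGTG at 9 bases and its reverse complement CACGC at 101 bases, and the windows of Cyp4b1 and Cyp4f18 held no match of these 4 motifs. Among 32851 RefSeq mouse promoters cut to the same 250 bases, 11.6% held CAAGTG, 17.8% held TGTTTNC, 9.56% held TTGCNNAA and 28.2% held GCGTG, so a match is a description of these letters and no more. Of the 14 P450 genes that were well expressed or called, 12 had an entry in the promoter table used here; Cyp2d22 and Cyp7b1 were not matched.

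Cyp4b1, Cyp2b10 and Cyp2d22 were lower after HDM in both genotypes, and Cyp4f18 was higher in both. In IL-13 KO lung, 5 of 39 tested P450 genes were lower after HDM than after PBS (Cyp4b1, Cyp2b10, Cyp2d22, Cyp2s1 and Cyp4f15) and 2 were higher (Cyp4f18 and Cyp7b1). In wild-type lung, 4 were lower (Cyp4b1, Cyp2b10, Cyp2d22 and Cyp2f2) and 1 was higher (Cyp4f18). A call is a Benjamini-Hochberg adjusted p under 0.05 from limma, taken over all 31496 probe sets. In KO, 12.8% of the P450 genes were thus called lower and 5.13% higher, beside 6.0% lower and 6.60% higher of all 14482 genes tested. In wild type, 10.3% were called lower and 2.56% higher, beside 5.92% and 6.02% of all genes. Of the 10 well-expressed P450 genes 3 were called lower in each genotype, beside 9.28% of all 6779 well-expressed genes in KO and 9.47% in wild type. These shares rest on few genes, and their differences from the background were not tested. Cyp4f18, the 1 gene called higher in wild type, passed the filter through its HDM samples, and its PBS means lay under the filter in both genotypes. The median log2 difference of the 39 P450 genes was 0.07 in KO and 0.02 in wild type, beside 0.01 and -0.003 for all genes tested. For the 10 well-expressed P450 genes the median was -0.44 in KO and -0.19 in wild type, beside -0.02 and -0.03 for all well-expressed genes. In whole lung RNA, fewer cells of a type and less RNA per cell cannot be told apart. RNA quality moved with HDM in KO. The 5′ over 3′ signal ratio of actin on set A was 0.464 to 0.656 in KO HDM and 0.748 to 0.854 in KO PBS samples, without overlap, and on set B it was 0.428 to 0.612 in KO HDM and 0.610 to 0.897 in KO PBS samples. In wild type the HDM range lay inside the PBS range, with 0.695 to 0.832 after HDM and 0.409 to 0.898 after PBS on set A, and 0.643 to 0.851 after HDM and 0.349 to 0.939 after PBS on set B. The part of RNA quality in the KO results was not tested.

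**Figure D1:**
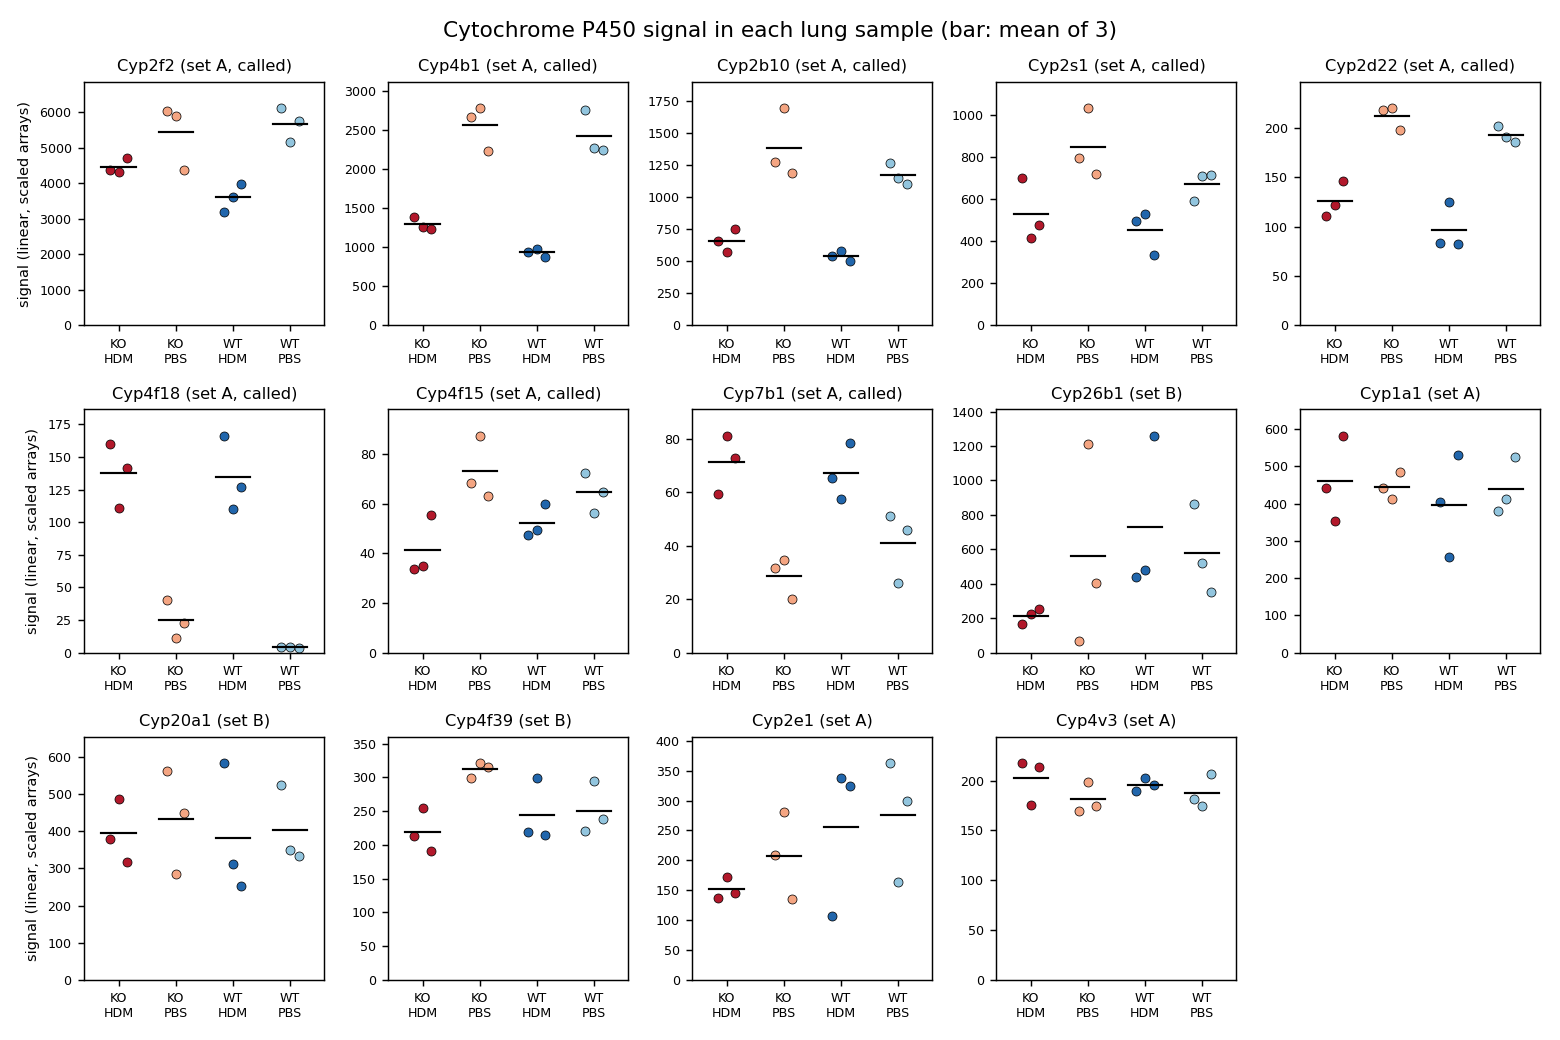
Signal of the 14 P450 genes that were well expressed or called, 1 panel per gene with its array set; points are the 3 samples of each group and bars their mean, on a linear axis from 0. Cyp4b1, Cyp2b10 and Cyp2d22 are lower in every HDM sample than in every PBS sample of the same genotype, and Cyp4f18 is higher in every HDM sample.

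Family 2 had 4 of the 10 well-expressed genes. Cyp2f2, the club cell enzyme that oxidises naphthalene, had signals of 4374, 4331 and 4706 in KO HDM and 6023, 5879.5 and 4386 in KO PBS samples. In wild-type lung its signals were 3200.4, 3627 and 3978 after HDM and 6108, 5154 and 5759 after PBS. The wild-type groups did not overlap, whereas KO PBS replicate 3 lay among the KO HDM samples. The log2 difference between HDM and PBS was -0.27 ± 0.13 (SE) in KO, with adjusted p = 0.231, and -0.66 ± 0.13 in wild type, with adjusted p = 0.00467 (limma). The KO effect minus the wild-type effect was 0.39 (95% interval -0.00 to 0.78), with adjusted p = 0.864, so the 2 genotypes were not shown to differ. Without the 3 samples that held skeletal muscle transcripts, the wild-type comparison had 1 HDM sample against 2 PBS samples, with the lone sample assumed to vary like the other groups; the log2 difference was then -0.58 and the adjusted p 0.130. The KO fall was called after quantile normalization (log2 difference -0.52, adjusted p = 6.80e-04).

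Cyp2b10, a phenobarbital-inducible enzyme in mouse liver that the airway epithelium also makes, fell in both genotypes. Its signals were 660.0, 570.0 and 753 in KO HDM and 1271, 1692 and 1188 in KO PBS samples. Wild-type samples had 538, 577 and 499 after HDM and 1268, 1148 and 1102 after PBS. Every HDM sample was below every PBS sample. The means were 661 ± 91.4 after HDM and 1384 ± 270.4 after PBS in KO, and 538 ± 39.2 after HDM and 1173 ± 85.8 after PBS in wild type (SD, n = 3 each). The log2 differences were -1.05 ± 0.14 in KO and -1.11 ± 0.14 in wild type, with adjusted p = 3.10e-04 and 1.78e-04 (limma). Its other 2 probe sets were called lower too, with log2 differences of -0.87 and -1.22 in KO and -0.93 and -1.23 in wild type. Probe sets of Cyp2b10, including the one used for the values above, can share sequence with other members of subfamily 2b. Cyp2b9 and Cyp2b19 of the same subfamily were not called, with log2 differences of 0.05 and 0.46 in KO and -0.27 and -0.13 in wild type.

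Cyp2d22, a mouse relative of the human drug-metabolising CYP2D enzyme, fell in both genotypes as well. It had 110.4, 122 and 146 in KO HDM and 218, 219.9 and 198 in KO PBS samples. In wild type it had 83.4, 125 and 82.8 after HDM and 202, 191 and 186 after PBS. HDM and PBS samples did not overlap in either genotype. The log2 differences were -0.73 ± 0.16 in KO and -0.97 ± 0.16 in wild type, with adjusted p = 0.00916 and 0.00129 (limma). A second probe set of Cyp2d22 was also called lower, by -0.58 in KO and -0.80 in wild type on the log2 scale. The other tested 2d gene, Cyp2d13, is a transcribed pseudogene in RefSeq, and its differences of 0.07 in KO and 0.23 in wild type were not called.

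Cyp2s1, an enzyme of epithelia outside the liver, had signals of 699, 415 and 476 in KO HDM and 797, 1031 and 721 in KO PBS samples. Wild-type samples had 495, 527 and 334 after HDM and 589, 708 and 715 after PBS. HDM samples were below PBS samples without overlap in each genotype. The log2 difference was -0.69 ± 0.21 in KO (adjusted p = 0.0462) and -0.58 ± 0.21 in wild type (adjusted p = 0.103, limma). The KO call lay close to the threshold: it held under 10 of 21 alternative settings, and its adjusted p ranged from 0.0150 to 0.181 over them, with the highest value without KO HDM replicate 2.

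The remaining well-expressed genes of families 1 and 2 were not called. Cyp1a1, the enzyme most strongly induced through the aryl hydrocarbon receptor, had 443, 353 and 583 in KO HDM, 441, 411 and 485 in KO PBS, 404, 257 and 529.7 in wild-type HDM and 381, 413 and 524 in wild-type PBS samples. All 4 groups overlapped, and the 95% interval of its HDM effect was -0.47 to 0.51 in KO and -0.68 to 0.30 in wild type on the log2 scale. Its window of 250 bases before the start held GCGTG at 54 bases. Cyp1b1, which is induced by the same receptor, differed by 0.09 in KO and 0.40 in wild type and was not called. Cyp2e1, the ethanol-inducible enzyme, had 137, 173 and 145 in KO HDM, 208, 280.1 and 135 in KO PBS, 106, 338 and 325 in wild-type HDM and 363, 164 and 299.5 in wild-type PBS samples. Its samples scattered widely within each group apart from KO HDM, and the intervals of its HDM effect, -1.21 to 0.44 in KO and -1.02 to 0.62 in wild type, leave room for changes of either sign.

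**Figure D2:**
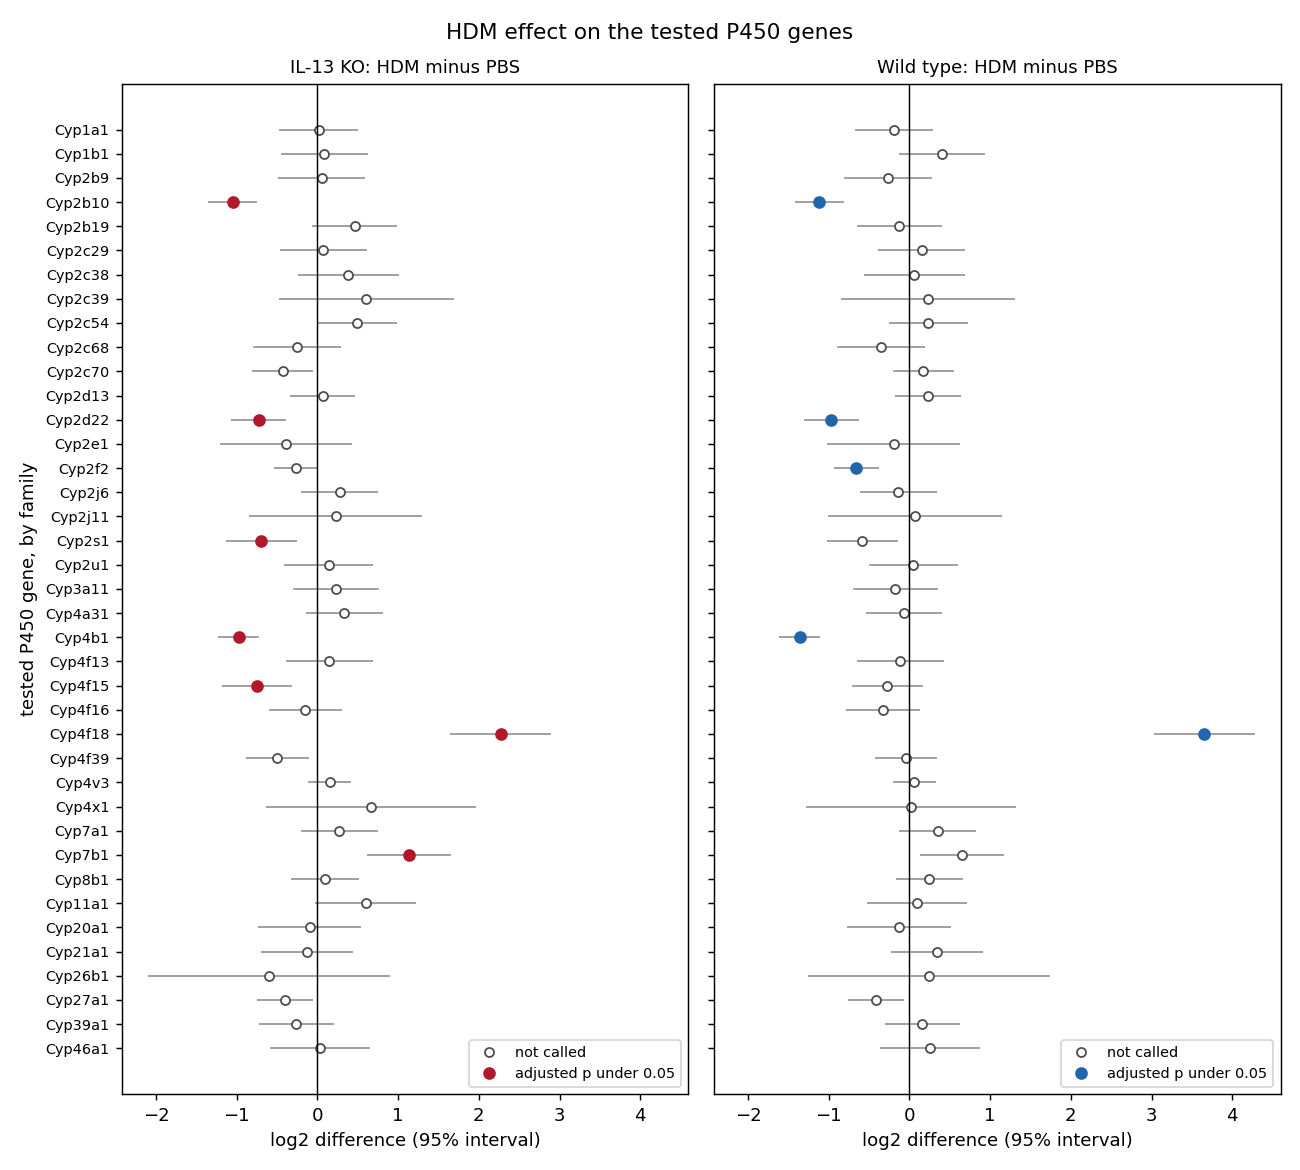
Log2 difference of HDM minus PBS with its 95% interval for the 39 tested P450 genes, in IL-13 KO on the left and wild type on the right; filled points have an adjusted p under 0.05. Cyp4b1 lies at -0.98 in KO and -1.36 in wild type, Cyp2b10 at -1.05 and -1.11 in the same order, and the positions of Cyp4f18 at the far right depend on the pseudocount, since its PBS means lay under the filter.

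Several of these genes are neighbours. In RefSeq, the stretch of chromosome 7 that runs in gene order through Cyp2s1, Cyp2b10, Cyp2b9, Cyp2b19, Cyp2f2 and Cyp2t4 holds 18 protein-coding genes, 13 of them P450 genes, of which 8 were members and 5 were tested. In KO 2 of these 5 were called lower (Cyp2b10 and Cyp2s1), and 3 of the 34 tested members elsewhere, beside 6.0% of all genes; the call of Cyp2s1 held under 10 of 21 alternatives, as given above. In wild type 2 of the 5 were called lower (Cyp2b10 and Cyp2f2), and 2 of the 34 elsewhere, beside 5.92% of all genes. The difference between the cluster and the other members was not tested. Cyp2b9 and Cyp2b19, which lie between Cyp2b10 and Cyp2f2, had low signals, with means over all samples of 37.8 and 40.8.

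**Figure D3:**
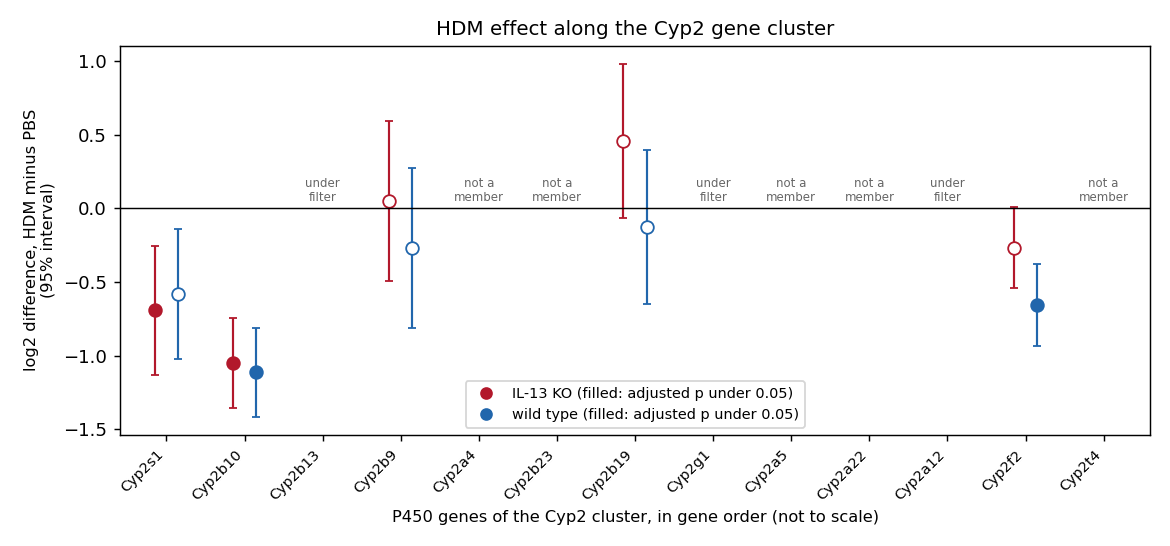
Log2 difference of HDM minus PBS with its 95% interval for the P450 genes of the Cyp2 cluster in gene order, KO left of wild type; filled points have an adjusted p under 0.05, and genes without points were under the filter or had no probe set of their own among the members. The points of Cyp2s1, Cyp2b10 and Cyp2f2 lie below 0 in both genotypes, and Cyp2b9 and Cyp2b19 have intervals that include 0.

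In family 4, Cyp4b1 fell in both genotypes. This enzyme hydroxylates fatty acids and activates the pulmonary toxin ipomeanol. Its signals were 1393, 1262 and 1231 in KO HDM and 2674, 2781 and 2232 in KO PBS samples. In wild type they were 947, 980.5 and 880.2 after HDM and 2757, 2275 and 2242 after PBS. No HDM sample reached any PBS sample. The HDM to PBS ratio of mean signals was 0.506 in KO and 0.386 in wild type. The log2 differences were -0.98 ± 0.12 in KO and -1.36 ± 0.12 in wild type, with adjusted p = 1.12e-04 and 4.75e-06 (limma).

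Subfamily 4f, whose members hydroxylate leukotriene B4 and other eicosanoids, moved in more than 1 direction. Cyp4f18, known in the mouse as a leukotriene B4 hydroxylase of myeloid cells, had 160.2, 111 and 141 in KO HDM and 40.4, 11.2 and 23.1 in KO PBS samples. In wild type it had 166, 109.9 and 127 after HDM and 4.50, 4.31 and 3.44 after PBS. The 3 wild-type PBS samples were near the bottom of the scale, and the KO PBS samples lay between them and all HDM samples. The gene passed the filter of 33.9 through its HDM samples: the means were 137 in KO HDM and 24.9 in KO PBS, where 1 of 3 samples reached the filter, and 134 in wild-type HDM and 4.09 in wild-type PBS, where 0 of 3 did. With PBS samples under the filter set to it, a floor chosen after the values were seen, Cyp4f18 was at least 3.78-fold higher after HDM in KO and at least 3.91-fold higher in wild type. It was called in both (adjusted p = 2.07e-04 in KO and 2.32e-06 in wild type, limma). The fitted log2 differences, 2.27 in KO and 3.65 in wild type, depend on the pseudocount of 7: the wild-type value was 2.19 with a pseudocount of 32 and 4.72 with a pseudocount of 1. A second probe set of Cyp4f18, on set B, was under the filter, with means of 15.01 in KO HDM, 17.1 in KO PBS, 22.3 in wild-type HDM and 19.8 in wild-type PBS samples, so it did not show the rise.

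Cyp4f15 had 33.6, 34.8 and 55.4 in KO HDM and 68.5, 87.5 and 63.1 in KO PBS samples, with no overlap. In wild type it had 47.5, 49.3 and 60.0 after HDM and 72.6, 56.4 and 64.7 after PBS, and the groups overlapped. The log2 difference was -0.75 ± 0.20 in KO (adjusted p = 0.0301) and -0.27 ± 0.20 in wild type (adjusted p = 0.515, limma). The KO call held under 14 of 20 alternatives, with adjusted p from 0.0139 to 0.113, and was lost without KO PBS replicate 2, where the difference was -0.62. Cyp4f39, the mouse counterpart of a human epidermal fatty acid hydroxylase, had 214, 254 and 191 in KO HDM, 299, 322 and 315 in KO PBS, 219, 299 and 215 in wild-type HDM and 220.3, 294 and 238 in wild-type PBS samples. KO HDM samples were below KO PBS samples without overlap, by -0.49 on the log2 scale, but the adjusted p was 0.104. The other 2 tested genes of subfamily 4f were called in no comparison. Cyp4v3, the mouse counterpart of a human fatty acid hydroxylase of the eye, differed little between groups, with 218, 175 and 214 in KO HDM, 169, 199 and 175 in KO PBS, 189, 203 and 195 in wild-type HDM and 181, 175 and 207 in wild-type PBS samples. The 95% interval of its HDM effect was -0.12 to 0.42 in KO and -0.21 to 0.33 in wild type.

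Among the sterol and retinoid families, Cyp7b1 rose in KO lung. Cyp7b1 hydroxylates oxysterols such as 25-hydroxycholesterol, the product of Ch25h. It had 59.6, 81.3 and 72.8 in KO HDM and 31.6, 34.8 and 20.2 in KO PBS samples. In wild type it had 65.5, 57.6 and 78.5 after HDM and 51.4, 26.2 and 45.9 after PBS. HDM samples exceeded PBS samples in each genotype without overlap. The log2 difference was 1.14 ± 0.24 in KO (adjusted p = 0.00813) and 0.66 ± 0.24 in wild type (adjusted p = 0.123, limma). Its KO PBS mean of 28.9 lay under the filter, which 1 of the 3 samples reached, and against the same floor the gene was at least 2.07-fold higher after HDM in KO. A second probe set of set A gave 0.93 in KO (adjusted p = 0.00253) and 0.52 in wild type (adjusted p = 0.0718), the same calls. Ch25h itself, which makes 25-hydroxycholesterol, rose by 2.15 in KO (adjusted p = 9.05e-05) and 2.81 in wild type (adjusted p = 7.02e-06, limma). Its signals were 246, 238 and 320.0 in KO HDM, 54.0, 51.3 and 57.7 in KO PBS, 351, 270.4 and 495 in wild-type HDM and 61.0, 26.5 and 56.0 in wild-type PBS samples.

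Cyp26b1, which breaks down retinoic acid, scattered more than any other well-expressed member by its standard error. It had 168, 224 and 253 in KO HDM, 65.3, 1213 and 404 in KO PBS, 441, 481 and 1261 in wild-type HDM and 863, 518 and 354 in wild-type PBS samples. The standard error of its log2 HDM effect was 0.70, and no comparison was called. Cyp20a1, an enzyme with no settled substrate, had 379.8, 486 and 317 in KO HDM, 562, 285 and 449 in KO PBS, 585, 311 and 254 in wild-type HDM and 525, 349 and 332 in wild-type PBS samples, and all groups overlapped. Cyp27a1, the sterol 27-hydroxylase, was -0.40 in KO and -0.41 in wild type on the log2 scale, with adjusted p = 0.148 and 0.153 (limma). In all, 25 tested genes below the well-expressed threshold were called in no comparison. Their mean signals ranged from 37.8 to 183, and their log2 HDM differences from -0.43 to 0.67 in KO and from -0.41 to 0.40 in wild type.

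Several subfamilies held no well-expressed gene. Subfamily 2c, whose enzymes epoxidise arachidonic acid and oxidise drugs, had 11 members, of which 6 were tested and 0 well expressed, with mean signals of 4.89 to 54.9. The log2 HDM differences of the 6 tested 2c genes ranged from -0.43 to 0.61 in KO and from -0.35 to 0.23 in wild type. Subfamily 2j, which also makes epoxides of arachidonic acid, had 5 members, of which 2 were tested, with log2 HDM differences of 0.23 to 0.28 in KO and -0.14 to 0.07 in wild type. Subfamily 3a, the main drug-oxidising group of liver, had 5 members and 1 passed the filter, and subfamily 2d had 8 members with 2 past it. Of the families that make steroid hormones, family 11 had 3 members with 1 tested and family 17 had 1 member under the filter.

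Genotype was compared next. Counts at an unadjusted p under 0.05 (limma) stand without a background, since the share of all genes at that p was not counted. The HDM effect was not shown to differ between KO and wild type for any of the 39 P450 genes, beside 0.200% of all genes called in that test. At an unadjusted p under 0.05 there were 3: Cyp4f18 (adjusted p = 0.558, with no size given because both PBS means lay under the filter), Cyp4b1 (KO effect minus wild-type effect 0.39, 95% interval 0.03 to 0.74, adjusted p = 0.833) and Cyp2c70 (-0.60, adjusted p = 0.832, limma). After PBS, 0 P450 genes were called between KO and wild type, beside 0.0345% of all genes, and 2 had an unadjusted p under 0.05. The smallest adjusted p was that of Cyp4f18, 0.174 (limma), with means of 24.9 in KO PBS and 4.09 in wild-type PBS samples, both under the filter, so no fold is given. KO PBS and wild-type PBS samples did not overlap for 5 of the 39 genes, all uncalled. Of these 3 were higher in KO PBS, or 7.69% beside 6.57% of all genes: Cyp4f18, Cyp2s1 (log2 difference 0.33) and Cyp4f39 (0.31). The other 2 were lower in KO PBS, or 5.13% beside 5.83% of all genes: Cyp2c54 (-0.43) and Cyp3a11 (-0.42).

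After HDM, 0 P450 genes were called between KO and wild type, beside 0.953% of all genes. An unadjusted p under 0.05 (limma) was found for 6, again without a count over all genes. The smallest adjusted p was 0.118, for Cyp4b1, which was higher in KO HDM than in wild-type HDM lung by 0.47 ± 0.12 (SE) on the log2 scale without overlap (limma). Cyp2f2 was also higher in KO HDM samples without overlap, by 0.32, and these 2 genes were 5.13% of the 39, beside 9.62% of all genes higher without overlap. Lower without overlap were 3 genes, or 7.69% beside 7.35% of all genes: Cyp26b1 (log2 difference -1.56), Cyp21a1 (-0.65) and Cyp2c70 (-0.45). The adjusted p was 0.478 for Cyp2f2 and 0.543 for Cyp26b1 (limma). The actin ratio given above was lower in KO HDM than in wild-type HDM samples without overlap on both array sets, and its part in this comparison was not tested.

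Enzymes that work with P450 were examined as lists, whose counts stand beside 6.60% of all genes called higher and 6.0% lower in KO, and 6.02% higher and 5.92% lower in wild type. Of 6 listed electron donors and reductases, 4 had a probe set of a single gene and were tested. Por, the reductase of P450 enzymes, and Fdxr were not among them and have no values here. Cyb5r3, which reduces cytochrome b5, was called lower in KO (log2 difference -0.74, adjusted p = 0.00958, limma). In wild type 0 of the 4 were called, Cyb5r3 was at -0.28, and 0 had an unadjusted p under 0.05 (limma). Of 9 tested regulators of P450 genes, Ahr, the aryl hydrocarbon receptor, was called lower in KO (-0.49, adjusted p = 0.0444), and 0 were called in wild type, where 1 had an unadjusted p under 0.05 (limma). Haem supply had 9 tested genes, with 1 higher and 2 lower in KO and 1 higher and 1 lower in wild type. Alas1, the first enzyme of haem synthesis, fell by 0.70 in KO and 0.94 in wild type on the log2 scale (adjusted p = 8.75e-04 and 6.71e-05, limma). Its signals were 723, 608 and 591 in KO HDM, 1123, 1057 and 946 in KO PBS, 558, 538 and 546 in wild-type HDM and 1053, 1083 and 1041 in wild-type PBS samples. Hmox1, the haem-degrading enzyme of stressed cells and macrophages, rose by 0.87 in KO and 0.91 in wild type, and Fech, the last enzyme of haem synthesis, fell by 0.72 in KO and was at -0.44 in wild type (adjusted p = 0.0547).

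Other oxidising and hydrolysing enzymes of drug metabolism had 19 tested members, of which 0 were higher and 8 lower in KO, and 1 was higher and 7 lower in wild type, beside 6.0% of all genes lower in KO and 5.92% in wild type. Ephx1, the microsomal epoxide hydrolase that handles epoxides made by P450, fell by 1.04 in KO and 1.19 in wild type on the log2 scale. The flavin monooxygenases Fmo1 and Fmo2 were at -0.83 and -0.75 in KO and -0.92 and -0.68 in wild type, all called. The median of the list was -0.50 in KO and -0.43 in wild type, beside 0.01 and -0.003 for all genes. Aox3, an aldehyde oxidase, was the 1 member called in the test for a different HDM effect between genotypes. It was at -1.17 in KO, called, and 0.29 in wild type, not called, with a difference of -1.46 (adjusted p = 0.00135, limma). After HDM, 2 members of the list, Aox3 among them, were called lower in KO than in wild type, and 0 higher.

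Conjugating enzymes had 15 tested members, of which 0 were higher and 4 lower in KO, and 1 was higher and 4 lower in wild type, beside the 6.0% of all genes lower in KO and 5.92% in wild type. The glutathione transferase Gsta3 fell by 1.49 in KO and 1.44 in wild type, and Gstm1 by 1.06 and 1.44 in the same order. The sulfotransferase Sult1d1 fell by 1.10 in KO and 1.40 in wild type. The median of the list was -0.21 in KO and -0.26 in wild type, beside 0.01 and -0.003 for all genes. Enzymes of the eicosanoid and sterol routes had 8 tested members, with 2 higher and 2 lower in KO and 3 higher and 1 lower in wild type. Tbxas1, thromboxane synthase, itself a P450 protein under another kind of symbol, rose by 0.95 in KO and 0.83 in wild type. Ptgis, prostacyclin synthase, also a P450 protein by sequence, fell by 0.82 in KO and 0.38 in wild type (adjusted p = 3.03e-04 and 0.0444, limma).

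**Figure D4:**
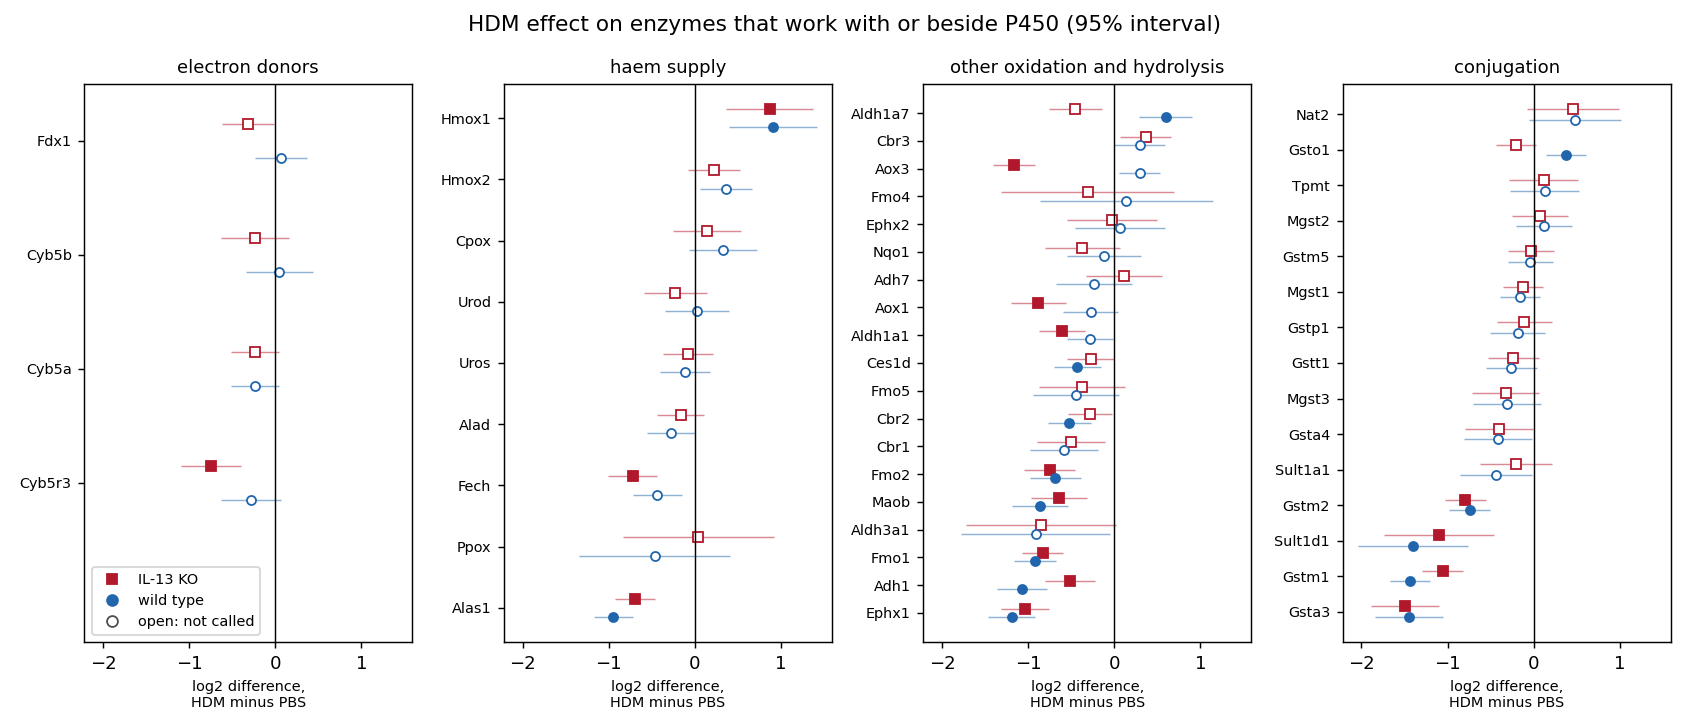
Log2 difference of HDM minus PBS with its 95% interval for the tested genes of 4 enzyme lists, KO squares above wild-type circles; filled symbols have an adjusted p under 0.05. Ephx1, Fmo1, Fmo2, Alas1, Gsta3 and Gstm1 lie below 0 in both genotypes, and Aox3 lies below 0 in KO and above 0 in wild type.

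Markers of the lung's cell types moved with HDM too, and their part in the P450 results was not tested. Of 11 club cell markers, 2 were called higher and 4 lower in KO, and 1 higher and 5 lower in wild type, beside 6.0% of all genes lower in KO and 5.92% in wild type. Their summed signal was 18108 to 18629 in KO HDM, 17758 to 21984 in KO PBS, 12589 to 15362 in wild-type HDM and 19234 to 22500.3 in wild-type PBS samples. KO PBS replicate 3 had the lowest club sum of its group. It also had the lowest alveolar type 2, alveolar type 1, endothelial, ciliated and macrophage sums, so this was not particular to club cell markers. Among the KO PBS samples, Cyp2f2 and the P450 genes called lower in KO were lowest in the same sample. The latter were Cyp4b1, Cyp2b10, Cyp2d22, Cyp2s1 and Cyp4f15, and a link was not tested. The median log2 difference of the 11 club cell markers was -0.27 in KO and -0.28 in wild type. Among them Scgb1a1, a club cell product, was at 0.02 in KO and -0.11 in wild type and was not called. Endothelial markers were lower for 9 of 12 in KO and 10 of 12 in wild type, with sums of 11909.8 to 12673 in KO HDM, 18434 to 20478 in KO PBS, 10699 to 12119 in wild-type HDM and 18341 to 20949 in wild-type PBS samples. Alveolar type 1 markers were lower for 4 of 10 in KO and 6 of 10 in wild type, and ciliated cell markers for 2 of 13 in KO and 4 of 13 in wild type. Alveolar type 2 markers were lower for 1 of 10 in KO and 2 of 10 in wild type. Of 8 smooth muscle markers, 3 were lower in KO and 6 were higher in wild type. Markers also differed between genotypes after HDM, where 0.953% of all genes were called in either direction. Called higher in KO HDM than in wild-type HDM were 3 of 11 club and 1 of 13 ciliated cell markers. Called lower were 7 of 8 smooth muscle and 1 of 11 macrophage markers. Their part in the genotype comparison of the P450 genes was not tested.

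Macrophage markers were higher for 7 of 11 in each genotype, beside 6.60% of all genes in KO and 6.02% in wild type, with sums of 11056 to 11751 in KO HDM, 6809.5 to 8653 in KO PBS, 9993 to 12072 in wild-type HDM and 7630.0 to 8143 in wild-type PBS samples. Lymphocyte markers were higher for 6 of 7 in KO and 5 of 7 in wild type. Of 6 tested neutrophil markers 0 were called in either genotype, with 2 at an unadjusted p under 0.05 in each (limma). The sums of all 7 on the arrays were 998 to 1149 in KO HDM and 1148 to 1219 in KO PBS samples. In wild type they were 814 to 1097 after HDM and 791 to 1269 after PBS. No marker of these lists had a value of 0 in any sample.

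**Figure D5:**
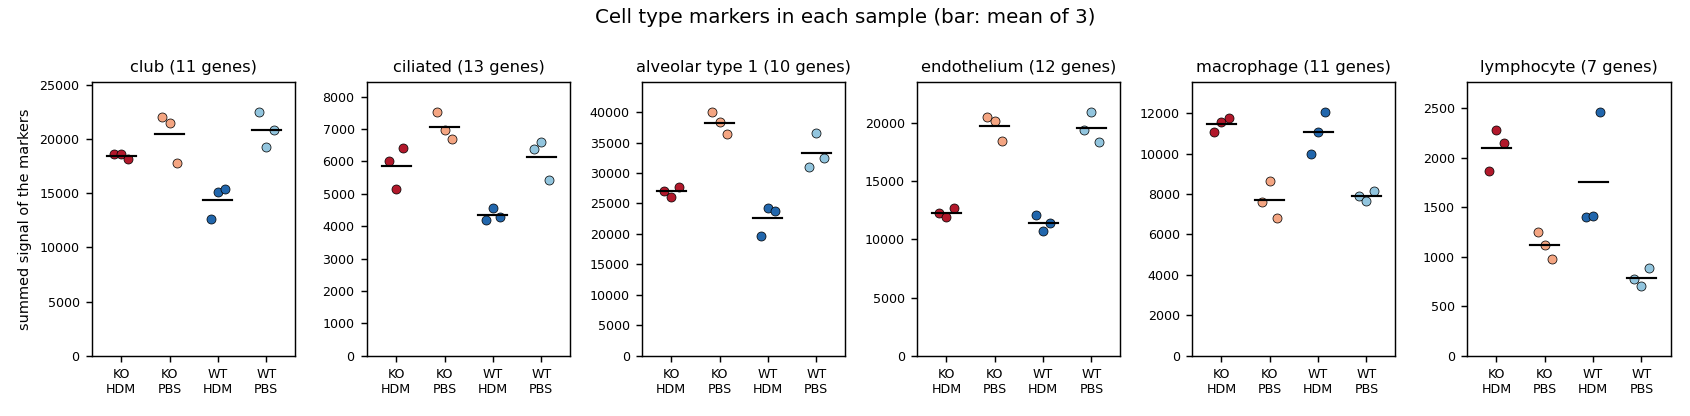
Summed signal of the markers of 6 cell types in each sample, on linear axes from 0; points are the 3 samples of a group and bars their mean. Endothelial and alveolar type 1 sums are lower in all HDM samples than in all PBS samples, macrophage sums are higher, and the club cell sum is lowest in the wild-type HDM samples.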

How the data were processed

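Lung RNA of 12 samples was hybridised to 24 arrays, 2 per sample. The deposited values were linear intensities, which the authors had scaled to a 2% trimmed mean of 150 on each array, as the values show; their software is not given in the sources used here, and no detection calls were used. The number of arrays limits the precision. Names came from the platform annotation, checked against RefSeq (GRCm38.p6), which changed 0 of the 70 symbols; 4 probe sets of several P450 genes were left out. Intensities were tested as log2(value + pseudocount), with pseudocounts of 7 (set A) and 11 (set B), the 10th percentile, so folds of low genes are understated. limma 3.58.1 in R 4.3.3 fitted the 4 groups in 1 model per array set (8 residual degrees of freedom), with eBayes and an intensity trend. The 5 comparisons were adjusted over 31496 probe sets by Benjamini-Hochberg at 0.05. The fit was tested on simulated data. Named genes were all well-expressed members, all called members, up to 6 others, and up to 3 called genes per list. Outside this rule, Cyp4a31, Cyp7a1 and Cyp11b2 (next to a threshold), Cyp2c54, Cyp3a11 and Cyp21a1 (groups without overlap), Aox3, Scgb1a1 and Tnnc2 were named after their values were seen. The members and lists were chosen with earlier results of these data known. Alternatives covered pseudocount, filter, normalization, trend, prior, replicate block, probe set and left-out samples.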

Additional observations from a re-analysis of the deposited data

Results flagged for a closer look

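Of the 4 probe sets annotated to several P450 genes at once, and therefore outside the 70 members, 2 were tested. For 1 of these HDM was not called, with log2 differences of 0.01 in KO and -0.06 in wild type (adjusted p = 0.970 and 0.874, limma). The other, annotated to 2 P450 genes, was lower after HDM. Its signals were 72.7, 50.7 and 101 in KO HDM, 162, 250.2 and 148 in KO PBS, 109, 125 and 131 in wild-type HDM and 499.9, 250.4 and 252 in wild-type PBS samples, with no overlap between HDM and PBS in either genotype. The log2 difference of HDM from PBS was -1.26 ± 0.28 (SE) in KO (adjusted p = 0.00942) and -1.33 ± 0.28 in wild type (adjusted p = 0.00654, limma). It was singled out because it carries signal in data that no comparison above used. KO samples lay below wild-type samples of the same treatment without overlap, by -0.77 after PBS and -0.70 after HDM on the log2 scale. After PBS the nearest samples almost touched, with 250.2 in KO and 250.4 in wild type. Neither difference was called (adjusted p = 0.578 and 0.458, limma). Among all genes, 5.83% after PBS and 7.35% after HDM were lower in KO without overlap. Groups of 3 samples were too small to test for outlying samples.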

How the results depend on the processing

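The number of P450 genes called was 7 for HDM in KO (5 to 8 over 21 alternatives, 5 to 7 when 1 sample was left out) and 5 for HDM in wild type (4 to 5, and 5 throughout when 1 sample was left out). For the interaction and for KO against wild type after HDM it was 0 under all 21 alternatives. For KO against wild type after PBS it was 0, with a range of 0 to 1 when 1 sample was left out: Cyp4f18, whose means lay under the filter in both PBS groups, was called without KO PBS replicate 2 (adjusted p = 0.0229). Of the 12 calls of single genes, 9 held under every alternative they had; the exceptions were Cyp2s1 and Cyp4f15 in KO, with the values given above and the cause not tested, and Cyp2f2 in wild type, which was lost only where 1 wild-type HDM sample and 2 wild-type PBS samples were left. With the replicate block the counts were 7 in KO and 5 in wild type. The replicate numbers did not pair the samples: of 36 pairs of same-numbered samples 7 had a correlation of deviations over 0.1, with a range of -0.13 to 0.18. A single variance prior for both array sets, chosen after seeing the data, gave 5 calls in KO and 5 in wild type. Cyp4f15 and Cyp7b1 lay under the 50th percentile filter and have no value there. Among the 7 genes with several tested probe sets, the second probe set gave 3 calls in KO and 2 in wild type, as the first did. Sample number and low signal limit the precision, most for genes near the filter.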
